A study of Mus musculus with 4 samples.

Results

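Erythroid genes were examined in RNA-seq libraries of myeloid-derived suppressor cells (MDSCs), immature myeloid cells whose numbers grow in hosts with tumors. The 9 genes were chosen by name, and each had 1 line among the 53465 genes listed: the adult α-globin genes Hba-a1 and Hba-a2, the adult β-globin genes Hbb-bs and Hbb-bt, Alas2, Slc4a1, Gata1, Klf1 and Epor. The cells came from the spleens of BALB/c mice carrying 4T1 tumors, a transplantable mammary carcinoma line, and the study's methods give male mice aged 6 weeks, injected under the skin. The spleens were taken on day 21 by the labels, whereas the methods give a shorter interval, and cells were enriched on magnetic beads with an antibody to Gr-1, which binds both Ly-6G and Ly-6C. Control libraries (n = 2) came from cells kept for 6 h in medium, and EGCG libraries (n = 2) from cells kept for 6 h in medium containing EGCG, a catechin of green tea, at 5 μg/mL. The labels do not say whether replicate libraries stem from separate mice, so the p-values measure the spread between these libraries, which may be technical.

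Red cells arise in steps that are well known. Erythropoietin acts on its receptor Epor on erythroid progenitors, the transcription factors Gata1 and Klf1 switch on the genes of the lineage, Alas2 starts the synthesis of heme in erythroid cells, and α- and β-globin chains bind that heme to form hemoglobin. Slc4a1 (band 3) is the anion exchanger of the red cell membrane and ties it to the spectrin skeleton. The spleen of adult mice can make red cells under stress and also removes old ones, so erythroid cells and macrophages that engulf red cells are both present in it, and Gata1 is also active in megakaryocytes, mast cells, basophils and eosinophils.

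Both pairs of globin genes are near copies in the reference genome, and this limits what their counts can mean. In the GENCODE M21 transcripts (GRCm38), the coding sequences of Hba-a1 (chr11:32283511-32284465, plus strand) and Hba-a2 (chr11:32296489-32297298, plus strand) differed at 1 of 426 bases, and those of Hbb-bs (chr7:103826534-103828096, minus strand) and Hbb-bt (chr7:103812524-103813996, minus strand) at 1 of 441 bases. The coding bases around each difference are shown with the differing base in capitals. By the reference sequence, a read can separate the copies in the coding part only where it covers that base. Reads of BALB/c mice may differ from the reference. The stretches lie at chr11:32284313-32284373 for Hba-a1, chr11:32297130-32297190 for Hba-a2, chr7:103826668-103826722 for Hbb-bs and chr7:103812659-103812713 for Hbb-bt, and are written 5′ to 3′ on the coding strand.
Hba-a1: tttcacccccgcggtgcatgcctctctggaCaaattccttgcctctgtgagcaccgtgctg
Hba-a2: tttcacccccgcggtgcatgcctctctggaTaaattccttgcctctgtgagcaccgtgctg
Hbb-bs: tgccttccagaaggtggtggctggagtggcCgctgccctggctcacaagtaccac
Hbb-bt: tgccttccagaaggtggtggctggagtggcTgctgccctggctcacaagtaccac

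Of the 31-base words in all annotated transcripts of a gene, 75.5% for Hba-a1, 92.6% for Hba-a2, 54.4% for Hbb-bs and 59.4% for Hbb-bt also occurred in transcripts of another gene. Hba-a1 had 191 words of its own and Hba-a2 had 47, whereas Hbb-bs had 335 and Hbb-bt had 273. The split of reads within each pair is therefore uncertain. The reference genome is that of C57BL/6J, and BALB/c mice carry another haplotype of the β-globin genes; its effect on the counts was not tested. Alas2 (chrX:150547375-150570638, plus strand) shared 13.1% of its words with other genes, and Apex2 and Mir3620 overlap it on the other strand, where the counting did not use strand. No words were shared by Slc4a1 (chr11:102348824-102366203, minus strand), Gata1 (chrX:7959260-7978071, minus strand), Klf1 (chr8:84901928-84905291, plus strand) or Epor (chr9:21958897-21963506, minus strand).

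Since Gata1 binds GATA motifs, the 250 bases before the RefSeq start site (GRCm38.p6) were searched for AGATAA, for its form with G in the last place, and for both forms with T in the first place, on both strands. The table of RefSeq promoters held 8 of the 9 genes, without Slc4a1. A match was found in 6 of them, against 26.5% of 32851 promoters of the same length. Hbb-bt and Gata1 had no match. The bases around the match were identical in Hba-a1 and Hba-a2, so their matches are not independent. The matches began 183 bases before the start for Hba-a1, 186 for Hba-a2, 210 for Hbb-bs, 86 for Alas2, 80 for Klf1 and 54 for Epor. The windows of 30 bases are written on the strand of the gene, with the match in capitals, and are shown because a GATA motif occurred in genes whose levels lay far apart. A match is a description of the sequence and not a measured site.
Hba-a1, chr11:32283477-32283506: tgtccgggcaacTGATAAggattccctgca
Hba-a2, chr11:32296294-32296323: tgtccgggcaacTGATAAggattccctgca
Hbb-bs, chr7:103828121-103828150: tgttctctgcacAGATAAggacaaacatta
Alas2, chrX:150547319-150547348: ctactttgctttTTATCTttagcagaggcc
Klf1, chr8:84901890-84901919: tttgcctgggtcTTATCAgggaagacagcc
Epor, chr9:21963613-21963642: ggtggctgtagcTTATCTgtccccagcctg

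The libraries held 17767318 to 18390385 counts on genes. Replicates of a group differed by more than sampling noise, with a mean chi-square per gene of 6.25 between the control libraries and 6.08 between the EGCG libraries. The labelled cell type was checked against 10 neutrophil genes, of which all were tested, and S100a8 and S100a9 together took 3.79% to 5.37% of the counts of a library. The 9 erythroid genes took 0.0171% (95% Wilson interval 0.0165 to 0.0177) and 0.0210% (0.0203 to 0.0217) of the counts in control replicates 1 and 2. In EGCG replicates 1 and 2 they took 0.0190% (0.0184 to 0.0197) and 0.0215% (0.0209 to 0.0222). The groups overlapped. These intervals cover counting error only.

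Levels across the 9 genes were compared as RPKM, which is CPM (counts-per-million, with library sizes scaled by the TMM method) divided by the exonic length of the gene in kilobases. Hbb-bs had the highest mean level over the 4 libraries at 130.0 RPKM, at percentile 97.1 of the tested genes, followed by Hba-a1 at 77.6 RPKM, at percentile 95.2. Hbb-bt (14.2 RPKM), Hba-a2 (5.18), Alas2 (2.66), Slc4a1 (2.02) and Gata1 (1.6) came next, and Klf1 (0.263) and Epor (0.147) stood lowest. The libraries of neighbors did not overlap from Hbb-bs down to Alas2. Those of Alas2 (2.42 to 2.91 RPKM) overlapped those of Slc4a1 (1.44 to 2.75), those of Slc4a1 overlapped those of Gata1 (1.26 to 1.88), and those of Klf1 (0.146 to 0.403) overlapped those of Epor (0.110 to 0.253). The levels and the order of the globin genes depend on how reads shared by the copies were counted, which the methods do not say.

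**Figure D1:**
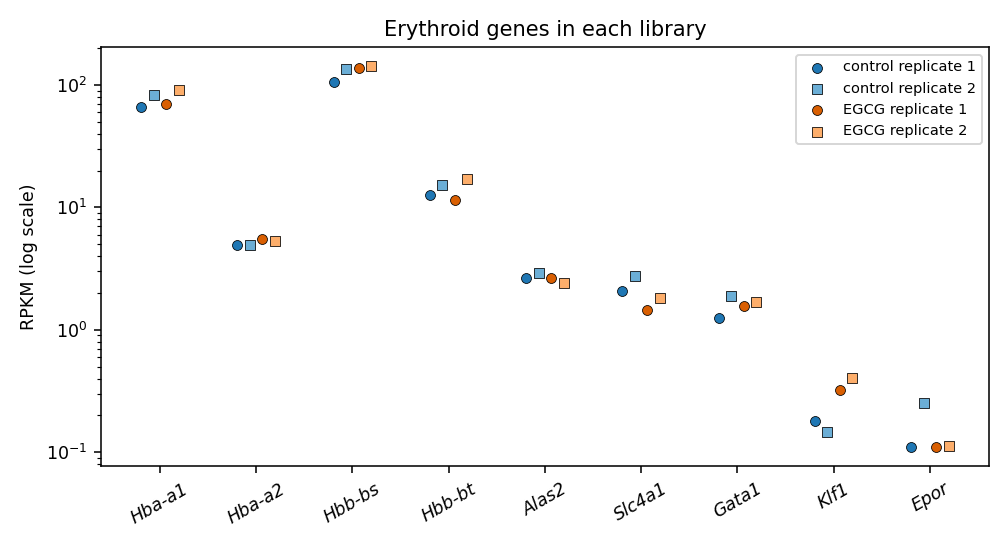
Level of the 9 erythroid genes in each of the 4 libraries as RPKM on a log scale, with control libraries in shades of blue and EGCG libraries in shades of orange. The globin genes Hbb-bs and Hba-a1 lie far above the other genes, and the EGCG libraries lie below the control libraries for Slc4a1.

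The comparison of EGCG with control asks whether the treatment changed the level of these genes. By the quasi-likelihood test of edgeR, adjusted over 14682 tested genes by the Benjamini-Hochberg method, 0 of the 7 erythroid genes with enough counts had an adjusted p under 0.05, against 0.150% of all tested genes. At an unadjusted p under 0.05 there were 2 of 7, against 12.2% of all tested genes. DESeq2 called 0, but it gave an adjusted p only to Hba-a1 (0.931) and Hbb-bs (0.501), and for Slc4a1 it gave an unadjusted p of 0.0148. For 3 of the 7, every EGCG library lay on the same side of every control library, against 42.7% of all tested genes. The 2 other genes, Klf1 and Epor, had too few counts to be tested. In bulk RNA, fewer erythroid cells and less RNA per erythroid cell cannot be told apart.

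Hbb-bs (ENSMUSG00000052305) was counted 1475 and 1853 times in control and 1922 and 1946 times with EGCG. This was 92.2 ± 16.2 CPM (SD, n = 2) in the control group and 107.5 ± 2.08 CPM (SD, n = 2) in the EGCG group. Control replicate 1 was the low library. Both EGCG libraries were above both control libraries, as were those of 21.5% of all tested genes. The log2 fold change was 0.22 (with a standard error of 0.10, 95% interval 0.01 to 0.44), with an unadjusted p of 0.0448 and an adjusted p of 0.400 by edgeR's quasi-likelihood test. Control replicate 1 decided this value: without it the log2 fold change was 0.06, and without control replicate 2 it was 0.41 with an adjusted p of 0.00356 by edgeR. Over 15 alternatives the adjusted p of Hbb-bs ran from 0.00356 to 0.975.

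Hbb-bt (ENSMUSG00000073940), the other adult β-globin gene, had counts of 161 and 193 in control and 147 and 216 with EGCG. The EGCG libraries lay on either side of the control libraries. Its log2 fold change was 0.04 (with a standard error of 0.19, 95% interval -0.36 to 0.44, adjusted p of 0.955 by edgeR), and it was -0.02 with a correction for gene length. Of the counts on the β pair, Hbb-bt held 9.84% (95% Wilson interval 8.49 to 11.4) and 9.43% (8.24 to 10.8) in control replicates 1 and 2. It held 7.10% (6.08 to 8.29) in EGCG replicate 1 and 9.99% (8.80 to 11.3) in EGCG replicate 2. The EGCG replicates thus differed from each other more in this share than the control replicates did.

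Hba-a1 (ENSMUSG00000069919) had counts of 974 and 1211 in control and 1038 and 1317 with EGCG. Replicate 2 was above replicate 1 in both groups, by 0.35 on the log2 scale in control and 0.37 in EGCG, and the groups overlapped. The log2 fold change between the groups was 0.11 (standard error 0.12, 95% interval -0.15 to 0.38, adjusted p of 0.767 by edgeR), smaller than the difference between replicates. It turned to -0.05 without control replicate 1 and to -0.08 without EGCG replicate 2.
Hba-a2 (ENSMUSG00000069917) had counts of 60 and 59 in control and 67 and 63 with EGCG. The EGCG libraries were above the control libraries by a few counts, as were those of 21.5% of all tested genes. The log2 fold change was 0.13 (with a standard error of 0.22, 95% interval -0.34 to 0.61, adjusted p of 0.864 by edgeR). Hba-a2 took 4.57% to 6.06% of the counts on the α pair.

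Since the copies share much of their reference sequence, each pair was also summed before the fit. The methods do not say how reads that match both copies were counted. If such reads were left out, the sums and the shares of α and β counts lack them too. The α pair had 1034 and 1270 counts in control and 1105 and 1380 with EGCG, with a log2 fold change of 0.11 (SE 0.12, adjusted p of 0.750 by edgeR). The β pair had 1636 and 2046 counts in control and 2069 and 2162 with EGCG. Its log2 fold change was 0.20 (with a standard error of 0.10, adjusted p of 0.432 by edgeR). The α genes took 38.7% (95% Wilson interval 36.9 to 40.6) and 38.3% (36.7 to 40.0) of the globin counts in control replicates 1 and 2, and 39.0% (37.4 to 40.6) in EGCG replicate 2. EGCG replicate 1 was lower at 34.8% (33.2 to 36.5). At an unadjusted p under 0.05, 1 of the 4 globin genes was higher (Hbb-bs) and 0 were lower, against 5.22% and 7.02% of all tested genes. The median log2 fold change of the 4 globin genes was 0.12, and single libraries moved it: it was 0.0046 when control replicate 1 was left out and 0.25 when control replicate 2 was. Leaving out EGCG replicate 1 gave 0.26, and leaving out EGCG replicate 2 gave 0.04. With the length correction it was 0.06.
The embryonic globin genes Hba-x, Hbb-bh1 and Hbb-y and the gene Hbb-bh2 had 0 counts in every library, which allows up to 0.164 to 0.168 CPM per library (3 counts). The θ-globin genes Hbq1a and Hbq1b had at most 4 counts in a library.

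Slc4a1 (ENSMUSG00000006574) had the largest log2 fold change in size among the 7 tested erythroid genes. Its counts were 186 and 240 in control and 128 and 159 with EGCG. This was 11.8 ± 2.29 CPM (SD, n = 2) in the control group and 7.98 ± 1.30 CPM (SD, n = 2) in the EGCG group. Both EGCG libraries were below both control libraries, as were those of 21.2% of all tested genes, although replicates also differed within each group. The log2 fold change was -0.56 (with a standard error of 0.17, 95% interval -0.94 to -0.19), with an unadjusted p of 0.00571 and an adjusted p of 0.224 by edgeR's quasi-likelihood test. The fold change was negative under all 14 alternatives, from -0.75 to -0.35, the latter without control replicate 2, and it was -0.53 with a correction for gene length. The adjusted p ran from 0.0180 to 0.684 by the tests that gave one, with 0.0180 when control replicate 1 was left out and 0.0405 when EGCG replicate 2 was left out, both by edgeR.

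**Figure D2:**
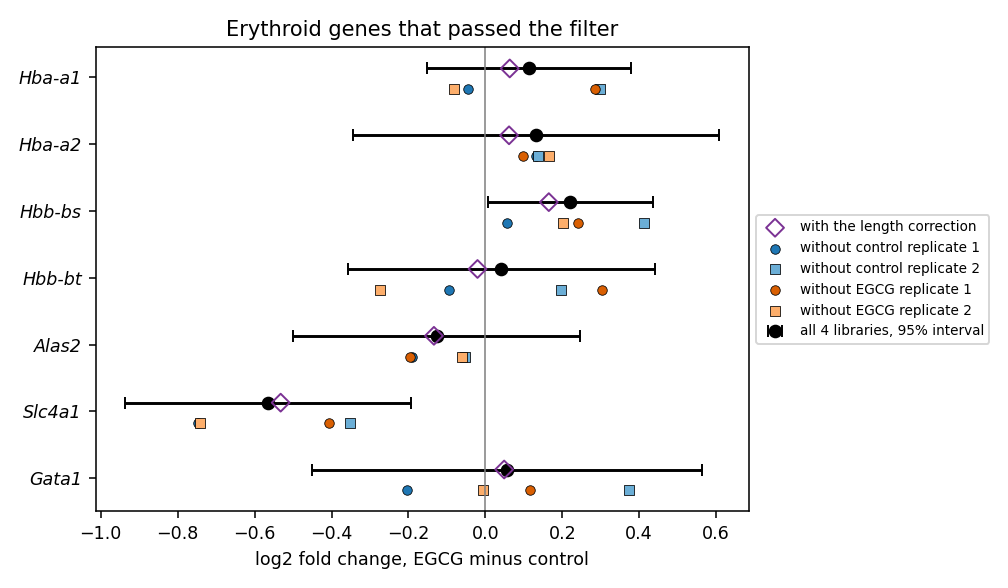
Log2 fold change of the 7 tested erythroid genes, EGCG minus control. Black points with bars show the value and its 95% interval with all 4 libraries, open diamonds the value with a length correction, and colored points the value with the named library left out. The intervals of Slc4a1 (-0.94 to -0.19) and Hbb-bs (0.01 to 0.44) lie on one side of 0 before adjustment for the number of genes, and Hba-a1, Hbb-bt and Gata1 change sign with the library left out.

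Alas2 (ENSMUSG00000025270), the erythroid enzyme of the first step of heme synthesis, had counts of 116 and 125 in control and 116 and 104 with EGCG. The groups overlapped, and the log2 fold change was -0.13 (with a standard error of 0.17, 95% interval -0.50 to 0.25, adjusted p of 0.828 by edgeR). Leaving out single libraries moved it from -0.20 (EGCG replicate 1) to -0.05 (control replicate 2).
Gata1 (ENSMUSG00000031162) had counts of 56 and 82 in control and 69 and 74 with EGCG. The EGCG libraries lay between the control libraries. Its log2 fold change was 0.06 (with a standard error of 0.24, 95% interval -0.45 to 0.56, adjusted p of 0.954 by edgeR), and it was -0.20 without control replicate 1.

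Klf1 (ENSMUSG00000054191) and Epor (ENSMUSG00000006235) were near the limit of detection. Klf1 was counted 5 and 4 times in control and 9 and 11 times with EGCG. Both EGCG libraries were higher, as were those of 21.5% of all tested genes. On the log2 CPM scale with a prior count of 2, the difference of the group means was 0.89 (pooled SD 0.16, n = 2 per group), and it lay between 0.76 and 1.02 when any 1 library was left out. When no filter on low counts was applied, its log2 fold change was 1.14 (with a standard error of 0.55), with an unadjusted p of 0.0701 and an adjusted p of 0.767 by edgeR.
Epor had counts of 4 and 9 in control and 4 and 4 with EGCG, so that 1 control library was above the others. The difference of its group means was -0.43 (pooled SD 0.45, n = 2 per group), and it was 0.02 without control replicate 2. Without the filter its adjusted p was 0.767 by edgeR. A difference in Epor was not detectable at this depth.

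The relation of the other erythroid genes to globin was also computed in each library, a measure chosen after the values had been seen. Slc4a1 had 69.7 and 72.4 counts per 1000 globin counts in control and 40.3 and 44.9 with EGCG. The gap between the groups was wide beside the gap between replicates. Alas2 had 43.4 and 37.7 counts per 1000 globin counts in control and 36.6 and 29.4 in EGCG. Its EGCG values thus also lay below its control values, by a narrow gap. For Gata1 these were 21.0 and 24.7 in control and 21.7 and 20.9 in EGCG, with overlap. The globin counts themselves were 2670 and 3316 in control and 3174 and 3542 in EGCG. They may lack reads that match both copies of a pair. With 2 libraries per group, these ratios are given with no test.

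**Figure D3:**
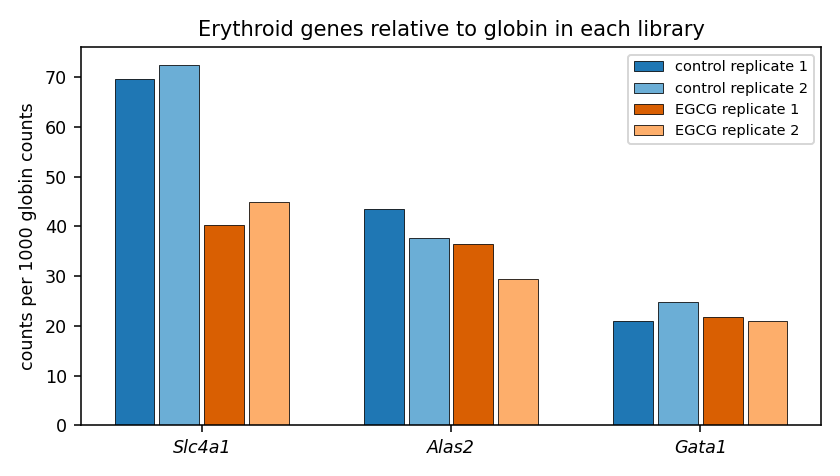
Counts of Slc4a1, Alas2 and Gata1 per 1000 counts of the 4 globin genes in each library. For Slc4a1 the control libraries stand at 69.7 and 72.4 and the EGCG libraries at 40.3 and 44.9. For Alas2 the EGCG libraries also lie below the control libraries, whereas the Gata1 values of the groups overlap.

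Other genes of the erythroid program were taken from 6 lists by function. None of their tested genes had an adjusted p under 0.05 by edgeR, and the counts at an unadjusted p under 0.05 are given for each list. DESeq2 also called 0 of them, but gave no adjusted p to many genes with low counts. Many of these genes are also used by myeloid cells, so their levels are not those of erythroid cells alone. Over all tested genes, the median log2 fold change was 0.0031, and 49.4% of the genes were below 0 and 50.6% above it.

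The red cell membrane and skeleton list had 17 tested genes of 22, of which 12 had a lower and 5 a higher level with EGCG, with a median log2 fold change of -0.24. At an unadjusted p under 0.05, 4 of the 17 were lower and 0 higher, against 7.02% of all tested genes lower and 5.22% higher. Slc4a1 is 1 of the 4, and 2 others are named after their values were seen: Sptb, which encodes the β chain of red cell spectrin, and Dmtn, which encodes the actin-bundling protein dematin.
Sptb had counts of 145 and 128 in control and 102 and 85 with EGCG. Both EGCG libraries were lower, as were those of 21.2% of all tested genes. The log2 fold change was -0.54 (SE 0.18, unadjusted p of 0.00937, adjusted p of 0.251 by edgeR).
Dmtn had counts of 11 and 26 in control and 6 and 8 in EGCG, with a log2 fold change of -1.38 (SE 0.54, adjusted p of 0.333 by edgeR), which was -0.62 without control replicate 2. With the length correction the log2 fold change was -0.40 for Sptb and -1.27 for Dmtn. Sptb and Dmtn have long exonic sequences, and fold changes fell with gene length across all tested genes (Spearman rho -0.285; genes are not independent replicates).
Rhag, which encodes the Rh-associated glycoprotein and is also named after its value was seen, had counts of 11 and 14 in control and 6 and 7 in EGCG (log2 fold change -0.93, standard error 0.52, adjusted p of 0.513 by edgeR). Its EGCG libraries were below its control libraries, as were those of 21.2% of all tested genes.
The list's most abundant genes in CPM outside the 9 were Add1 (α-adducin, log2 fold change 0.07), Epb41 (protein 4.1, -0.07) and Slc2a1 (the glucose transporter GLUT1, -0.05), with adjusted p values of 0.748, 0.799 and 0.865 by edgeR. The median of the 17 genes was -0.08 without control replicate 2, -0.10 without EGCG replicate 1 and -0.39 without control replicate 1. With a minimum count of 30, 9 genes of the list were left, with 5 lower and a median of -0.05, and with the length correction 11 of the 17 were lower.

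The heme synthesis list had 13 tested genes of 13, with 6 higher, 7 lower and a median log2 fold change of -0.03. At an unadjusted p under 0.05 there were 0 of the 13 in either direction, against 12.2% of all tested genes. Alas1, the form of the first enzyme used outside the erythroid lineage, had a mean level over the 4 libraries of 36.9 RPKM, against 2.66 RPKM for Alas2. Alas1 was at 220.7 ± 0.823 CPM (SD, n = 2) in control and 235.0 ± 5.60 CPM (SD, n = 2) in EGCG, and a log2 fold change of 0.09. The mitochondrial iron importer Slc25a37 (mitoferrin-1) had -0.05 and Tmem14c, which acts in porphyrin transport, 0.10, and the adjusted p of all genes on this list was at least 0.587 by edgeR.
The erythroid transcription factor list had 13 tested genes of 15, with 6 higher and 7 lower, a median of -0.02 and 1 of the 13 lower at an unadjusted p under 0.05, near the 7.02% of all tested genes. That gene was Cbfa2t3 (ETO2), a corepressor that joins Gata1 complexes, with a log2 fold change of -0.35 (SE 0.12, adjusted p of 0.258 by edgeR), named after its value was seen. The most abundant in CPM, which is not corrected for length, were Nfe2 (0.07), Ldb1 (0.09) and E2f2 (0.0027), with adjusted p values of 0.754, 0.720 and 0.996.

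The list of erythropoietin signaling and iron uptake had 9 tested genes of 12, with 8 lower and 1 higher, a median of -0.12 and 2 of the 9 lower at an unadjusted p under 0.05, against 7.02% of all tested genes. Jak2, the kinase bound to Epor and to other cytokine receptors, was at 385.3 ± 30.6 CPM (SD, n = 2) in control and 333.4 ± 20.0 CPM (SD, n = 2) in EGCG. Its log2 fold change was -0.21 (with a standard error of 0.08, unadjusted p of 0.0231, adjusted p of 0.332 by edgeR). The other gene was Hfe, a regulator of iron uptake named after its value was seen, with -0.27 (standard error 0.11, adjusted p of 0.349). Stat5b had -0.06 and Stat5a -0.07, with adjusted p values of 0.802 and 0.797. Epo itself had 0 counts in every library.
The list of red cell enzymes and late maturation genes had 9 tested genes of 12, with 8 lower and 1 higher, a median of -0.11 and 1 of the 9 lower at an unadjusted p under 0.05, against 7.02% of all tested genes. That gene was Ube2l6 (named after its value was seen, -0.28, adjusted p of 0.359 by edgeR). Bnip3l, which acts in the clearance of mitochondria from reticulocytes, was the higher gene (0.14, adjusted p of 0.528). Xpo7 had -0.19 and Blvrb -0.09, with adjusted p values of 0.422 and 0.736. Car1, an abundant carbonic anhydrase of red cells, had 1 to 3 counts in a library and was not tested.

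**Figure D4:**
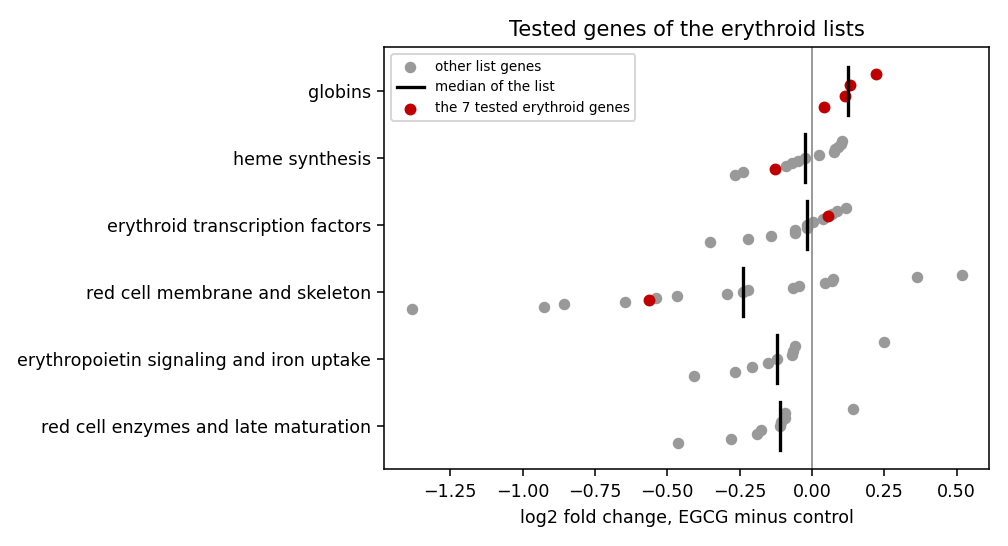
Log2 fold change, EGCG minus control, of the tested genes in 6 lists of erythroid genes, with the 7 tested genes of the 9 in red, other genes in gray and the median of each list as a black line. The 4 globin genes lie above 0 with a median of 0.12 (0.0046 without control replicate 1; Hbb-bt is at -0.02 with the length correction), and 12 of the 17 membrane and skeleton genes lie below 0 with a median of -0.24.

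Markers of other cells that use some of these genes were set beside them. For megakaryocytes and platelets, 7 of 10 genes were tested and 7 were lower with EGCG (median log2 fold change -0.15). Their summed level was 61.0 and 63.6 CPM in control and 48.8 and 53.7 CPM in EGCG, and the most abundant in CPM, Itga2b and Vwf, had log2 fold changes of -0.28 and -0.49 (adjusted p of 0.306 and 0.258 by edgeR). These 2 were the genes of the list with an unadjusted p under 0.05, against 7.02% of all tested genes lower. The platelet chemokine genes Pf4 and Ppbp, named after their values were seen, had -0.04 and -0.11 (adjusted p of 0.972 and 0.943 by edgeR). For red pulp macrophages, which take up old red cells, 12 of 12 genes were tested and 11 were lower (median -0.25), 6 of them at an unadjusted p under 0.05, against 7.02% of all tested genes, and 1 was higher at that threshold, against 5.22%. Cd5l had a log2 fold change of -0.59 (adjusted p of 0.107), Mertk -0.74 (0.167) and Adgre1, which encodes F4/80, -0.27 (0.228), by edgeR. These 3 are named after their values were seen, and their EGCG libraries lay below their control libraries, as was the case for 7 of the 12 genes in all, against 21.2% of all tested genes. The summed level of that list was 1426 and 1462 CPM in control and 1333 and 1459 CPM in EGCG, and it overlapped between the groups. Slc40a1 was the largest part of that sum, at 593.5 CPM in control and 682.3 CPM in EGCG. The most abundant genes in CPM had opposite directions, with 0.20 for the iron exporter Slc40a1 and -0.20 for the heme oxygenase Hmox1 (adjusted p of 0.339 and 0.405 by edgeR). Their part in the lower level of Slc4a1 was not tested.
Among mast cell and basophil genes, 8 of 8 were tested, 3 were higher and 5 lower (median -0.02), and Hdc and Prss34 had -0.01 and 0.02. Their summed level was 546.1 and 600.3 CPM in control and 561.8 and 578.6 CPM in EGCG. Eosinophil genes were lower for 6 of 6 tested (median -0.23), from 1177 and 1018 CPM in control to 998.2 and 832.5 CPM in EGCG, and Prg2 and Epx had -0.26 and -0.31 (adjusted p of 0.320 and 0.196 by edgeR). The part of these cells in the counts of Gata1 was not tested.

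The joint pattern of the 7 tested erythroid genes over the 4 libraries was, on average, lower in control replicate 1 and EGCG replicate 1 than in the other two libraries. The mean of their centered log2 CPM was -0.14 and 0.16 in control replicates 1 and 2 and -0.10 and 0.08 in EGCG replicates 1 and 2. Among 9628 other genes with a mean count of at least 100, the closest pattern by root mean square difference was that of Fiz1 (0.0108 on the log2 scale), followed by Gm6900 (0.0156), Rnf113a2 (0.0236), Ing3 (0.0251) and Ints8 (0.0257). With 4 libraries this is a description, and 3706 of these genes were as close to the mean pattern as the median erythroid gene was.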

How the data were processed

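RNA-seq counts per gene were used for 2 control and 2 EGCG libraries. The authors aligned reads with STAR 2.6.0c to GRCm38, counted them with featureCounts 1.6.2 on Ensembl release 91 annotation without strand, and deposited whole-number counts without normalization. Lines without a gene name numbered 0, as did columns of other samples. The members and gene lists were chosen with earlier results of these data known. Genes passing edgeR's filterByExpr (minimum count of 10) were tested in edgeR 4.0.16 (legacy quasi-likelihood test, TMM scaling, no block) with Benjamini-Hochberg adjustment over 14682 genes, as the study's methods name that test. Exonic lengths and positions came from GENCODE M21, and promoters from RefSeq (GRCm38.p6). The standard error is the size of the log2 fold change divided by the square root of F. Genes named are the 9 erythroid genes, the 3 tested genes of highest CPM in each list, the 2 of highest CPM in each marker list, the 5 closest in pattern, some list genes with 0 to 4 counts in every library (chosen after their values were seen), and others said to be chosen after their values were seen. Ahsp and Fam132b (Erfe), which 2 lists hold, were not analysed here, and 2 membrane and skeleton genes are counted but not reported singly. Alternatives were other scalings, filters and tests, DESeq2 1.42.0, a replicate block, a length offset (loess, span of 0.4) and leaving out each library. The test was checked on simulated data. Other tools were R 4.3.3, Python 3.11.15, pandas 2.3.3, NumPy 2.4.6 and matplotlib 3.10.9.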

Additional observations from a re-analysis of the deposited data

How the results depend on the processing

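With all 4 libraries, no alternative of scaling, filter, test, block or length correction gave an erythroid gene an adjusted p under 0.05, although DESeq2 gave an adjusted p to only 2 of the 7. Leaving out a library gave 0 to 1 of the 9, 0 to 1 globin genes and 0 to 1 membrane and skeleton genes. The directions of Hba-a2, Hbb-bs, Alas2 and Slc4a1 were the same in every alternative run. Hbb-bt turned to a log2 fold change of -0.020 with the length correction, and with a library left out the log2 fold change ran from -0.27 to 0.30 for Hbb-bt, from -0.20 to 0.37 for Gata1 and from -0.081 to 0.30 for Hba-a1; the cause was not tested. The replicate numbers are not said to mark a shared mouse or day, and deviations of same-numbered libraries had a correlation of 0.0336 over 14682 genes. The replicate block gave 0 erythroid genes, with -0.56 for Slc4a1 (adjusted p of 0.143 by edgeR), and moved the higher genes called among all tested from 2 to 6 and the lower from 20 to 24. Higher and lower genes called were 14 and 54 with DESeq2, 16 and 135 with library size only, 1 and 9 with a minimum count of 30, 0 and 0 without a filter (777 and 1018 at an unadjusted p under 0.05), and 14 and 49 with the robust fit. The newer fit gave 6 higher genes, upper-quartile scaling 9 lower and the length correction 3 lower. With a library left out there were 12 to 198 higher and 73 to 342 lower. A lone library was assumed to vary like the other group. Depth limits Klf1, Epor and the red cell membrane genes with few counts.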

Other observations

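The remaining marker lists describe what else was in the sorted cells beside the erythroid RNA, and none of their genes had an adjusted p under 0.05 by edgeR. For endothelial cells, 6 of 7 genes were tested and 6 were lower with EGCG (median log2 fold change -0.62), 4 of them at an unadjusted p under 0.05, against 7.02% of all tested genes, with Pecam1 at -0.26 and Kdr at -0.75 (adjusted p of 0.224 and 0.223 by edgeR). Monocyte genes were lower for 6 of 7 tested (median -0.14), with Csf1r at -0.14 and Ly6c2 at 0.12. B cell genes were higher for 5 of 7 tested (median 0.10), with Ighm at 0.15 and Cd79b at 0.10, and T cell genes for 5 of 7 tested (median 0.14), with Cd3d at 0.14 and Lck at 0.25. Stem and progenitor cell genes were lower for 3 of 5 tested (median -0.07), with Myb at 0.04 and Kit at -0.12. Neutrophil genes were higher for 7 of 10 tested (median 0.13), with S100a8 at 0.38 and S100a9 at 0.21 (adjusted p of 0.228 and 0.522 by edgeR).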
